A study of Mus musculus with 13 samples.

Results

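Neural stem cells (NSCs) carried 13086 H3K4me3 peaks at least 1000 bp wide, out of 33292 listed, and 831 of them (6.35%) overlapped no H3K4me3 peak by even 1 bp in oligodendrocyte precursor cells (OPCs) or newly formed oligodendrocytes (NFOs). The members were selected on width and overlap in the NSC, OPC and NFO H3K4me3 lists, so their H3K4me3 values are a description. These lost peaks are described here by their genes, by H3K27me3 at the same place in all 3 cell types, and by OLIG2 binding in OPCs and NFOs. The series holds 13 samples with 1 library per condition, and 8 ChIP-Seq peak lists were used. The NSCs were bought as cells from cortices of E14.5 embryos and kept in culture with EGF, FGF, B27 and N2, and their labels give both CD-1 and C57BL/6 as the strain. OPCs and NFOs were purified without culture from C57BL/6 brains at postnatal day 7 by immunopanning, OPCs with an antibody to PDGFRα and NFOs with one to GalC after depletion of microglia and endothelial cells, and all samples were untreated. Cell type, age, culture, strain and, by the names of the listed peaks, single-end reads in NSCs against paired-end reads in OPCs and NFOs cannot be told apart. A peak absent from a list is a peak that was not called, and no list gives the depth of its library.

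H3K4me3, trimethylation of lysine on histone H3, marks the starts of genes that are transcribed or poised for it. H3K27me3 is written by Polycomb repressive complex 2 and covers silent developmental genes, often over CpG-rich promoters, and a promoter with both marks is called bivalent. OLIG2 is a basic helix-loop-helix transcription factor that sets oligodendrocyte fate and binds E-box sequences.

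The loss of H3K4me3 fell on promoters of unlike base composition, and the RefSeq promoters (GRCm38.p6) of 5 lost genes are shown because they span these cases. Each is the 250 bases before the transcription start site (TSS), read 5′ to 3′, with CG in capitals. Ephb4, a receptor for ephrin-B ligands, and Itga2, a collagen-binding integrin subunit, gained H3K27me3. Fads6 gained it too and had an OLIG2 peak in NFOs, but its lost peak had an NSC fold enrichment of 3.48, below the study's filter of 3.5. Fas, the death receptor, and Aldoc, the brain form of aldolase, had no H3K27me3 in any cell type.
Ephb4 promoter, chr5:137349859-137350108, plus strand: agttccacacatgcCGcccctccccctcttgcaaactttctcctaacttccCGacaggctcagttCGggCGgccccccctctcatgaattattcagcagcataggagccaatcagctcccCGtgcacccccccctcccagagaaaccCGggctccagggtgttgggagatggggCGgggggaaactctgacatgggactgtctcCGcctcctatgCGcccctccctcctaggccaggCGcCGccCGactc
Itga2 promoter, chr13:114932101-114932350, minus strand: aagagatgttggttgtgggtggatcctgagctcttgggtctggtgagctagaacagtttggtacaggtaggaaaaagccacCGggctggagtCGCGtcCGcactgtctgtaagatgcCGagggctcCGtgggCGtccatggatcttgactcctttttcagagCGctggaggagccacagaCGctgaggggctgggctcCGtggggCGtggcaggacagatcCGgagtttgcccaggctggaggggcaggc
Fads6 promoter, chr11:115297563-115297812, minus strand: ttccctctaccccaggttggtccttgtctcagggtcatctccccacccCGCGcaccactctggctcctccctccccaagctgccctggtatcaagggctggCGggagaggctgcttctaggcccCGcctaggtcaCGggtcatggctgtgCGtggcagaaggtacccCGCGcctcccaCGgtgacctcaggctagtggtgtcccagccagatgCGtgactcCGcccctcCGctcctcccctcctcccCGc
Fas promoter, chr19:34290409-34290658, plus strand: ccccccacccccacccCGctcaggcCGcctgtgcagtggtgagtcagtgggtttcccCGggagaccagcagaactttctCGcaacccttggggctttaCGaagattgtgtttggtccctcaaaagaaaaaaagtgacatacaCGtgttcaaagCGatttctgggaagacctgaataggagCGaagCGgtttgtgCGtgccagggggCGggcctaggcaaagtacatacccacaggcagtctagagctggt
Aldoc promoter, chr11:78323948-78324197, plus strand: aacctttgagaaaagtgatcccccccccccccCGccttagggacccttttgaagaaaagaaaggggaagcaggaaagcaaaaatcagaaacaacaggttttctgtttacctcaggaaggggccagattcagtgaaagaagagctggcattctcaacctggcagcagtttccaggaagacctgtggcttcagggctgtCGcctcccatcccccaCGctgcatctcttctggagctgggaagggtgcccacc
These promoters held 12, 12, 13, 11 and 3 CG in the order shown. Of all 32851 RefSeq promoters of the same length, 92.1% held at least 1 CG and 37.8% held 10 or more. Of the 264 promoters that overlapped lost peaks 65.5% held 10 or more, against 83.3% of the 8859 that overlapped NSC peaks kept in both OPCs and NFOs.

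The labels name the H3K4me3 antibody for the H3K27me3 samples and the reverse, so the marks were taken from the sample titles. In the 3 lists titled H3K4me3, from 44.4% to 72.7% of peaks lay within 1 kb of a TSS, against 7.54% to 20.0% in those titled H3K27me3. At NSC markers such as Nes and Sox2, 26 of 27 genes had a wide H3K4me3 peak in NSCs. H3K4me3 of any width lay at a TSS of 26 of them in the OPC list too, and of 18 in the NFO list. Among 24 genes of the oligodendrocyte lineage 18 had H3K4me3 at a TSS in the OPC list and 13 in the NFO list, and the defining myelin genes Mbp, Mog and Mag were without it in the NFO list. In NSCs 13 of these 24 genes had a wide peak. Of 18 microglial and endothelial genes 3 had H3K4me3 in OPCs, 2 in NFOs and 2 a wide peak in NSCs. These marker counts did not tell the 3 cell types apart, and NSCs were scored on wide peaks alone. The NFO list held 2380 peaks at least 1000 bp wide against 9038 in OPCs, and 4564 wide NSC peaks had no NFO peak while 1019 had no OPC peak. Absence from the NFO list is therefore reported as not listed, and the depth of that library is unknown.

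The lost peaks were at the narrow and weak end of the NSC list. Their median width was 1260 bp (range 1000 to 5907), against 2386 bp for peaks kept in both cell types. Fold enrichment over the control, as the authors' peak caller gave it, had a median of 4.27 (range 2.26 to 12.6), against 9.24 for peaks kept in both and 7.04 for those kept in OPCs alone. Of the 831, 692 passed the study's filter of a fold enrichment above 3.5 with a false discovery rate (FDR) below 0.05. Less than 50 bp above the width limit, 120 lost peaks had a median fold enrichment of 4.03, and up to 50 bp below it 123 peaks that overlapped neither list had 3.93. The nearest OPC or NFO H3K4me3 peak lay a median of 9795 bp away, 52 lost peaks had one within 1 kb, and the smallest gap was 17 bp. Just outside the overlap rule, 8 kept peaks overlapped the OPC and NFO lists by less than 100 bp, the smallest by 10 bp.

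Lost peaks lay away from annotated starts more often than peaks kept in OPCs, and less often than the few peaks kept in NFOs alone. Within 1 kb of a TSS were 389 of 831 (46.8%, 95% exact binomial interval 43.4 to 50.3), against 90.1% of all wide NSC peaks 94.6% (94.1 to 95.1) of those kept in both cell types and 31.9% (25.3 to 39.1) of the 188 kept in NFOs alone. All intervals here cover counting error over peaks only and no difference between cultures or animals. A further 93 lay 1 to 3 kb from a TSS, 191 (23.0%) in gene bodies, 141 (17.0%) were distal intergenic, and 17 were on contigs outside the chromosomes. Gene bodies held 1.34% and distal regions 3.02% of the peaks kept in both, and 18.1% and 27.7% of those kept in NFOs alone. The difference from peaks kept in both remained among peaks of like NSC fold enrichment. Between 3.5 and 5, 42.3% of lost peaks were within 1 kb of a TSS against 76.4% of those kept in both, and above 7 the shares were 70.5% (31 of 44) and 96.7%.

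**Figure D1:**
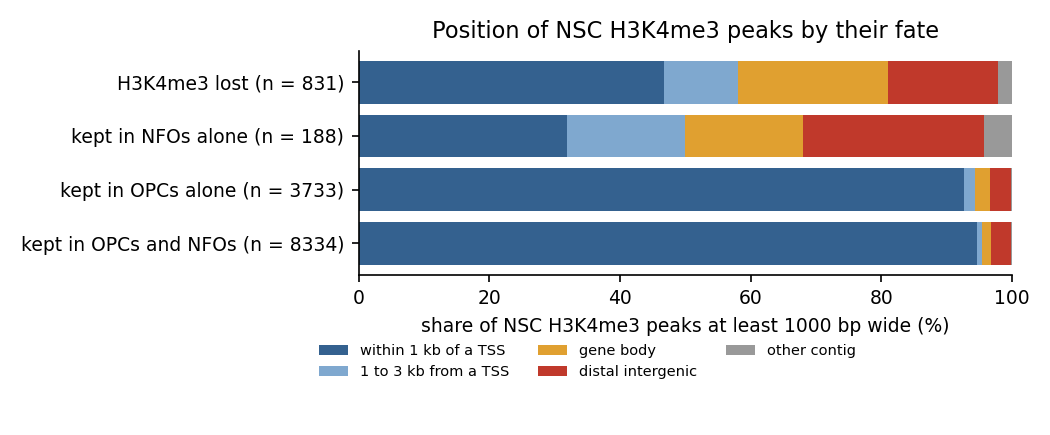
Share of wide NSC H3K4me3 peaks (x axis, percent) by distance to a TSS or position in genes, for lost peaks and for peaks kept in NFOs alone, in OPCs alone and in both (bars). Lost peaks have 46.8% within 1 kb of a TSS, and the kept classes have 31.9%, 92.7% and 94.6%.

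Repeats were more frequent at lost peaks than at peaks kept in both, and about as frequent as at peaks kept in NFOs alone. Soft-masked repeats covered more than 50% of 115 lost peaks (13.8%, 11.6 to 16.4), against 0.348% (0.233 to 0.499) of those kept in both and 17.6% (12.4 to 23.8) of those kept in NFOs alone. The ratio of observed to expected CpG was 0.413 at the median in lost peaks, 0.628 in peaks kept in both and 0.338 in those kept in NFOs alone. The part of repeats in the calls was not tested, and without contigs and repeat-rich peaks 699 lost peaks remained, of which 53.9% were within 1 kb of a TSS.

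Most lost peaks had no H3K27me3 in any list, but fewer of them were free of it than among all wide NSC peaks. No list held it at 516 of 831 lost peaks (62.1%, 58.7 to 65.4), against 80.7% of all wide NSC peaks. NSCs had it at 202 lost peaks (24.3%, against 11.2% of all wide NSC peaks), OPCs at 201 (24.2%, against 13.2%), and NFOs at 149 (17.9%, against 8.56%). With an NSC fold enrichment of 3.5 to 5, OPCs had it at 25.8% of lost peaks. Peaks kept in OPCs alone had 26.7% there and those kept in both 35.1%. NFOs had it at 17.4%, 22.2% and 25.1% in that order, and NSCs at 26.7%, 18.6% and 28.8%. In that range the excess was thus absent in OPCs and NFOs. From 5 to 7 the OPC shares were 20.6%, 12.5% and 23.7%. Above 7 lost peaks had 11 of 44 in OPCs (13.2 to 40.3%), against 6.54% and 9.52%. Gained H3K27me3, listed in the later cell type and not in NSCs, lay at 95 lost peaks in OPCs (11.4%, 9.35 to 13.8, against 7.11% of all wide NSC peaks) and at 66 in NFOs (7.94%, 6.20 to 9.99, against 4.2%). Both cell types had gained it at 48 (5.78%, against 3.22%), and 113 had gained it in at least 1 of them. Peaks kept in NFOs alone had gained it at like shares, 12.8% (8.35 to 18.4) in OPCs and 8.51% (4.94 to 13.5) in NFOs. A group of 79 lost peaks had H3K27me3 in all 3 cell types (9.51%, against 4.22% of all wide NSC peaks) and 92 had it in NSCs alone (11.1%, against 4.99%).

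**Figure D2:**
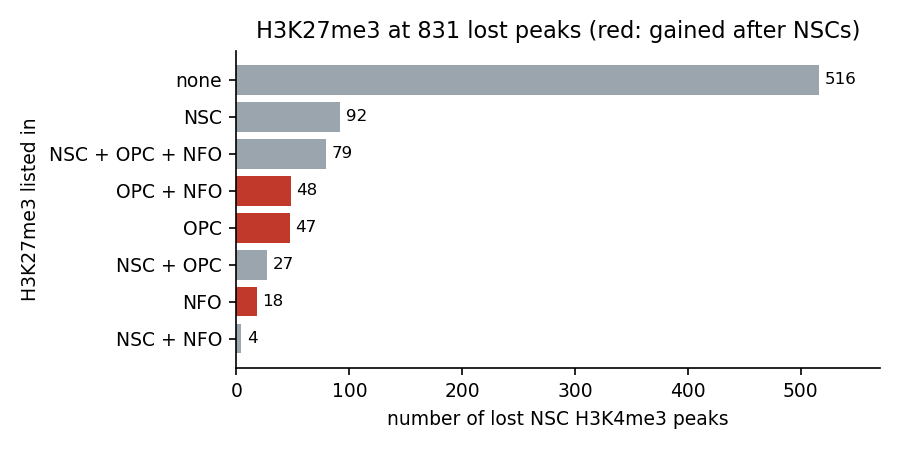
Number of lost NSC H3K4me3 peaks (x axis) by the cell types whose H3K27me3 list overlaps them (y axis). Red bars are the 113 peaks without H3K27me3 in NSCs and with it in OPCs (47), NFOs (18) or both (48), and 516 peaks have none.

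The gain differed with where the peak lay and with its strength. Among lost peaks within 1 kb of a TSS, 66 of 389 gained H3K27me3 in OPCs (17.0%, 13.4 to 21.1), against 6.19% (5.67 to 6.74) of TSS peaks kept in both and 7.42% (6.57 to 8.35) of those kept in OPCs alone. Of TSS peaks kept in NFOs alone 12 of 60 gained it in OPCs (20.0%, 10.8 to 32.3). From 1 to 3 kb the OPC gain was 11.8% in lost peaks and 8.22% in those kept in both. In gene bodies it was 4.19% (1.83 to 8.09) and 12.5% (7.01 to 20.1). In distal intergenic regions it was 7.09% (3.45 to 12.7) and 10.7% (7.18 to 15.2). Lost peaks were thus lower at both of these places, with overlapping intervals. Weak kept peaks gained H3K27me3 more often than strong ones. With a fold enrichment above 7, 5.22% of peaks kept in OPCs alone and 5.76% of those kept in both gained it in OPCs. Lost peaks had 6 of 44 (13.6%, 5.17 to 27.4), an interval that held both of these shares, and peaks kept in NFOs alone 5 of 26 (19.2%). With a fold enrichment of 3.5 to 5 at any place, 11.8% of lost peaks, 11.9% of peaks kept in OPCs alone and 11.4% of those kept in both gained it in OPCs. At a TSS in the same range the shares were 18.4% (13.2 to 24.7), 13.2% (9.89 to 17.1) and 9.66% (6.00 to 14.5), and the intervals overlapped. Between 5 and 7 at a TSS they were 15.7% (9.89 to 23.3), 8.94% (7.40 to 10.7) and 9.08% (7.31 to 11.1). In that range at a TSS the gain in NFOs was 13.4% in lost peaks, 6.40% (5.09 to 7.92) in those kept in OPCs alone and 5.51% (4.13 to 7.19) in those kept in both, and the interval of the lost peaks lay just above the others.

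H3K27me3 covered more of the lost peaks than of the peaks kept in both, and less than of those kept in NFOs alone. It covered at least 50% of the peak in OPCs at 98 lost peaks (11.8%, 9.68 to 14.2), against 2.62% (2.28 to 2.98) of peaks kept in both, and in NFOs at 74 (8.90%, 7.06 to 11.1), against 1.93% (1.65 to 2.25). Of peaks kept in NFOs alone 20.7% (15.2 to 27.2) were covered to that extent in OPCs and 18.6% (13.3 to 24.9) in NFOs. Part of this cover was already there in NSCs, where 143 lost peaks (17.2%, 14.7 to 19.9) were so covered, against 2.65% of those kept in both and 30.9% of those kept in NFOs alone. Gained cover of at least 50% in OPCs, with no H3K27me3 in NSCs, was less frequent, at 29 lost peaks (3.49%) against 0.660% of those kept in both. With a fold enrichment of 3.5 to 5 it was at 4.01% (2.39 to 6.26) of lost peaks and 2.58% (1.04 to 5.25) of those kept in both, and the intervals overlapped. Between 5 and 7 it was at 4.02% (1.75 to 7.77) and 0.845% (0.387 to 1.60), and they did not. At the centre of the peak, 11.7% of lost peaks were covered by H3K27me3 in OPCs and 9.39% in NFOs. Peaks kept in OPCs alone had 2.49% covered at the centre in OPCs and 4.31% at 2.5 kb upstream by coordinate, while lost peaks had 9.15% covered in OPCs at that distance. At the lost peaks that gained H3K27me3, its median cover was 33.7% over the 95 in OPCs and 38.4% over the 66 in NFOs. The widest H3K27me3 peak gained there measured 904 bp at the median for OPCs (range 177 to 9210) and 1023 bp for NFOs (178 to 10921).

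**Figure D3:**
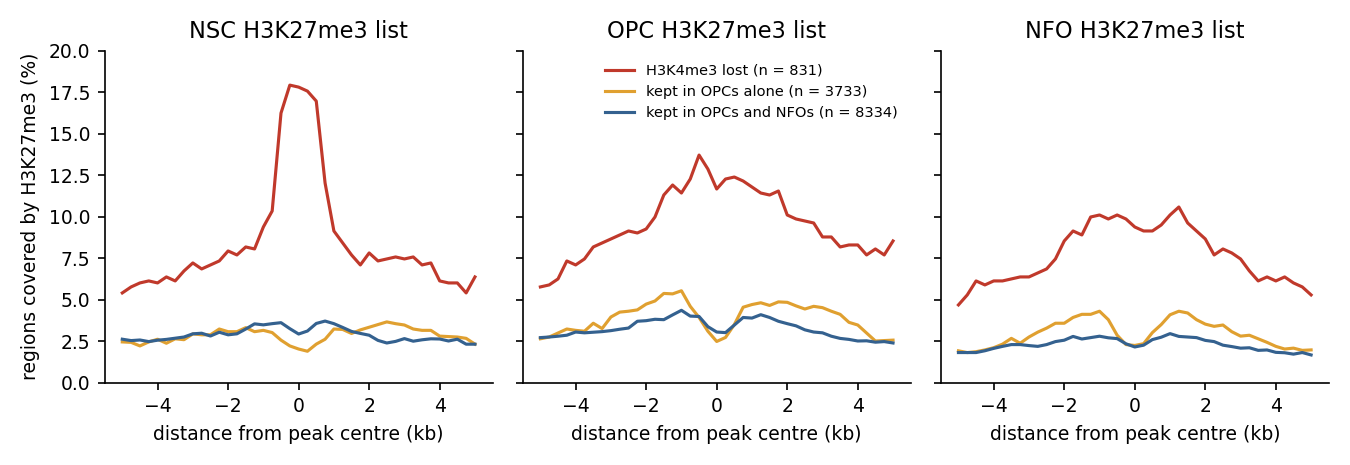
Share of regions covered by H3K27me3 peaks (y axis, percent) against distance from the centre of the NSC H3K4me3 peak (x axis, kb) in the NSC, OPC and NFO lists, for lost peaks (red), peaks kept in OPCs alone (yellow) and peaks kept in both (blue), without the 188 kept in NFOs alone. At the centre lost peaks reach 17.8% in the NSC, 11.7% in the OPC and 9.39% in the NFO list, and peaks kept in both 2.94%, 3.06% and 2.16%.

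Lost peaks that gained H3K27me3 and lost peaks with OLIG2 differed in CpG content. The 814 lost peaks on chromosomes were split into 4 CpG classes of like size by observed over expected CpG, with bounds at 0.250, 0.413 and 0.602. H3K27me3 gained in OPCs lay at 2.94% (1.09 to 6.29) of class 1, the lowest, at 9.85% and 14.8% of the next classes, and at 39 of 204 in class 4, the highest (14.0 to 25.2%). For NFOs the lowest class had 1.96% (0.537 to 4.94) and the highest 15.2% (10.6 to 20.9). In peaks kept in both, split at the same bounds, the OPC shares were 5.41% (2.01 to 11.4) and 7.10% (6.38 to 7.87) in the lowest and highest class. They also rose in peaks kept in OPCs alone, at 2.27%, 4.38%, 5.52% and 9.27% (8.04 to 10.6) over the 4 classes. For NFOs the lowest and highest class had 0.901% and 4.14% in peaks kept in both. In peaks kept in OPCs alone the NFO shares were 0% and 6.94%. In lost peaks the order for OLIG2 was the opposite. An OLIG2 peak in OPCs or NFOs lay in 26 of 204 lost peaks of the lowest class (12.7%, 8.50 to 18.1) and in 1 of 204 of the highest (0.490%, 0.0124 to 2.70), while peaks kept in both had 11.7% (6.39 to 19.2) and 15.2% (14.2 to 16.2). With NSC fold enrichment held between 3.5 and 7, the lowest class gave OLIG2 at 13.6% (8.51 to 20.2) of lost peaks. Of those kept in both it gave 12.5% (5.55 to 23.2). The highest class in that range gave OLIG2 at 0.581% (0.0147 to 3.20) of lost peaks. For peaks kept in OPCs alone the share there was 1.68% (0.943 to 2.76), and for those kept in both 6.84% (4.97 to 9.13). In the same range and class H3K27me3 gained in OPCs lay at 20.9% (15.1 to 27.8), 13.2% (11.1 to 15.6) and 11.4% (upper bound 14.2), so that the interval of lost peaks overlapped that of peaks kept in OPCs alone. Distance to a TSS moved with CpG content, with 22.1% of the lowest and 65.2% of the highest class of lost peaks within 1 kb of a TSS, and its part was not tested.

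**Figure D4:**
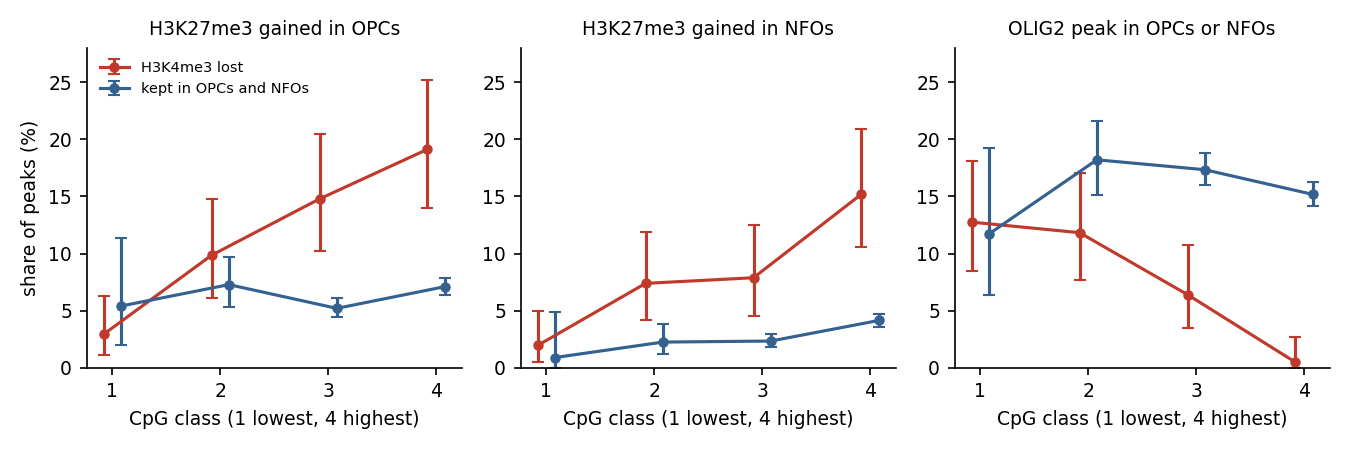
Share of peaks (y axis, percent, with 95% exact binomial intervals as bars) with gained H3K27me3 in OPCs, in NFOs, or with an OLIG2 peak, by class of observed over expected CpG (x axis, 1 lowest to 4 highest) for lost peaks (red) and peaks kept in both (blue). In lost peaks the OPC gain is 6 of 204 in class 1 and 39 of 204 in class 4, and OLIG2 is 26 of 204 and 1 of 204.

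H3K27me3 in NSCs alone marked lost peaks of another kind. These 92 peaks had a median CpG ratio of 0.209, repeats over a median of 43.8% of their length, and 16.3% within 1 kb of a TSS. The 79 with H3K27me3 in all 3 cell types had a median CpG ratio of 0.590 and 58.2% within 1 kb of a TSS. Some of them lay at developmental genes with both marks listed in NSCs. Among these were Pax3, Pax9, Sim1 and Foxb1, transcription factors of the neural tube, pharyngeal pouches and brain, and Ihh, a hedgehog ligand. All but Pax9 and Foxb1 were chosen after their values were seen, and the share of such genes was not counted. At Pax9 the lost peak was 3469 bp wide with a fold enrichment of 5.90 and was covered over 100% by H3K27me3 in NSCs, OPCs and NFOs. At Pax3 the cover was 100% in NSCs and OPCs and 74.4% in NFOs, and at Foxb1 it was 100%, 76.4% and 73.6%. At these genes H3K4me3 left a place where H3K27me3 was already listed in NSCs.

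The 10 lost peaks with most bases under H3K27me3 gained in both cell types were selected to have none of it in NSCs. The first lay at the start of Mab21l2, a gene of eye and brain development inside Lrba (chromosome 3, 86546021 to 86548915), with a fold enrichment for H3K4me3 in NSCs of 5.11 and H3K27me3 over 100% in OPCs and NFOs. A neighbouring peak in Lrba was covered over 39.9% in OPCs and 100% in NFOs, and an NFO H3K4me3 peak lay 824 bp from the first. Epor, the erythropoietin receptor, had 100% in OPCs and 77.5% in NFOs. Adora2a, an adenosine receptor of the striatum, had 86.6% and 100%, and Ppl, which encodes the desmosomal protein periplakin, 93.6% and 100%. Piezo2, a mechanically gated channel, had 58.5% and 97.9%. The others were Tbc1d30, Gm43418 and a pair of peaks whose nearest starts were those of 4930557F10Rik and Gm29418, and 6 of the 10 were within 1 kb of a TSS.

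**Figure D5:**
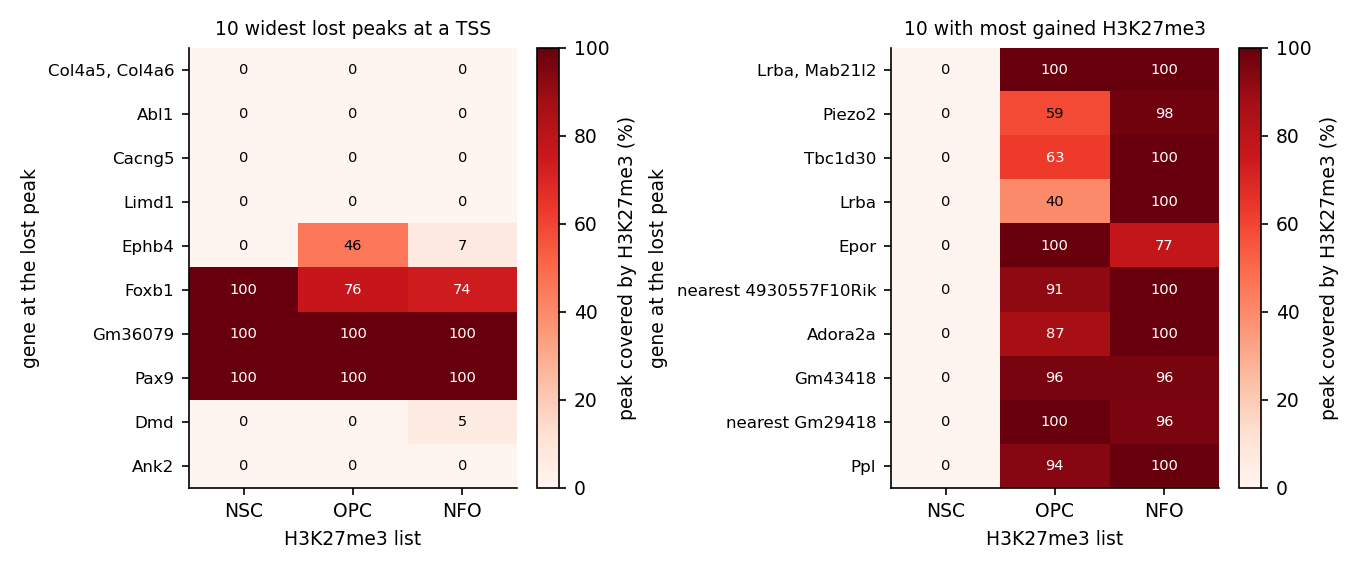
Share of each lost peak covered by H3K27me3 (colour and printed value, percent) in the NSC, OPC and NFO lists (x axis) for the 10 widest lost peaks at a TSS and the 10 with most gained H3K27me3 (y axis, genes). In the right panel the NSC cells are 0 by selection, and in the left panel Foxb1, Gm36079 and Pax9 are at 100% in NSCs.

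Among the 10 lost peaks with the highest NSC fold enrichment within 2 kb of a TSS, 3 gained H3K27me3 in OPCs and 1 in NFOs, against 17.0% and 11.8% of all lost peaks within 1 kb of a TSS, counts too small to compare. The highest at a protein-coding gene was Fas (chromosome 19, 34290491 to 34292505) at 10.9, with none in any list and the nearest H3K4me3 peaks 95562 bp away in OPCs and 64233 bp away in NFOs. Anxa2, an annexin that binds membranes, followed at 8.88 and was covered over 27.4% in OPCs and 0% in NFOs. Gbp9, an interferon-inducible GTPase, stood at 8.63 and Trim16 at 8.23, both without H3K27me3. Pcdhgc5, a clustered protocadherin, stood at 8.37 without it, and Btg4 with its neighbour 4833427G06Rik at 8.15. Ttyh2 and Eva1c, at 8.22 and 8.05, were covered over 12.8% and 18.9% in OPCs. The highest value of this group, 11.4, lay at the lncRNAs Gm15247 and Gm15726, and Dlg3 is described below with genes that kept another start.

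The widest lost peak, 5907 bp, lay between Col4a5 and Col4a6 (chromosome X, 141472559 to 141478465), which encode basement membrane collagens and start back to back. Its fold enrichment was 4.33, no list held H3K27me3 there, and the nearest H3K4me3 peaks were 242337 bp away in OPCs and 76482 bp away in NFOs. Cacng5, a subunit that modulates AMPA receptors, had a lost peak of 4159 bp, and Limd1, a LIM-domain scaffold, one of 3739 bp, both without H3K27me3. Ephb4, whose promoter is printed above, had one of 3737 bp covered over 45.9% in OPCs and 6.98% in NFOs. At Gm36079 H3K27me3 covered 100% of a 3504 bp peak in each of the 3 cell types. Of these 10 widest peaks, 5 carried H3K27me3 in some list, while 62.1% of all lost peaks had it in none.

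OLIG2 peaks were not frequent at lost H3K4me3. They overlapped 27 lost peaks in OPCs (3.25%, 2.15 to 4.69, against 6.41% of all wide NSC peaks) and 43 in NFOs (5.17%, 3.77 to 6.91, against 7.93%). Both lists had a peak at 6 (0.722%, against 2.26% of all wide NSC peaks) and at least 1 list at 64 (7.70%, against 12.1%). Peaks kept in both cell types had 8.76% and 10.6%, and those kept in OPCs alone 1.90% and 2.36%. Among peaks with a fold enrichment of 3.5 to 5, the OPC shares were 3.79% for lost peaks, 2.12% for those kept in OPCs alone and 3.32% for those kept in both. The 64 lost peaks with OLIG2 had a median CpG ratio of 0.276, and 20 (31.3%) were within 1 kb of a TSS.

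At 6 lost peaks OLIG2 was listed in both cell types while neither had H3K4me3 listed over the peak itself. At Serpine2, a serine protease inhibitor of the nervous system, the lost peak (chromosome 1, 79860462 to 79861572) had a fold enrichment of 7.66, and OLIG2 had one of 11.3 in OPCs and 13.4 in NFOs. H3K27me3 was in none of the lists there, and an OPC H3K4me3 peak lay 1590 bp away. Serpine2 as a gene kept H3K4me3, since the OPC and NFO lists both had it within 2 kb of a start. An NSC H3K4me3 peak overlapped that second place. A second place, 2.89 kb from the start of Kif11, a mitotic kinesin, had OLIG2 at 12.3 in OPCs and 7.98 in NFOs with no H3K27me3. The others lay near Gm29340, Chmp4b, Gm10253 and Sf3a3, and their OLIG2 fold enrichments ran from 4.43 to 14.8 in OPCs and from 3.77 to 12.5 in NFOs. The OPC value near Sf3a3 (4.43) and the NFO value near Chmp4b (3.77) were below the study's OLIG2 filter of 5. The 150 bases around the centre of the OPC OLIG2 peak at the first pair are shown (GRCm38.p6), with each E-box, CANNTG, in capitals.
OLIG2 peak at Serpine2, chr1:79861311-79861460, plus strand: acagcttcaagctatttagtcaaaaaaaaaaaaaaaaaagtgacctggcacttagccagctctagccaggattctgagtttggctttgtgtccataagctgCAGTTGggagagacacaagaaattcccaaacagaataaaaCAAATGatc
OLIG2 peak near Kif11, chr19:37380293-37380442, plus strand: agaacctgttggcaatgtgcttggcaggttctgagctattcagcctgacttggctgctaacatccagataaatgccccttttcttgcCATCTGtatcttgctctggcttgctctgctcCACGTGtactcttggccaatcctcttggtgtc
Both windows held 2 E-boxes, as did the one near Gm10253, while the one near Sf3a3 held 1 and those near Gm29340 and Chmp4b held 0. CANNTG, which reads the same on both strands, was in 16 of 27 such windows at lost peaks in OPCs (59.3%, 38.8 to 77.6) and in 56.5% of all 7384 OPC OLIG2 windows, and in 47.5% (43.8 to 51.1) of windows at the centres of lost peaks without OLIG2. In NFOs it was in 24 of 45 (53.3%, 37.9 to 68.3) and in 54.2% of all NFO windows. The form CAGCTG was in 0 of the 27 OPC windows, with an upper bound of 12.8%, against 10.1% of all OPC windows, and in 3 of the 45 NFO windows against 7.01%. CAGATG, searched on both strands, was in 18.5% (6.30 to 38.1) of the 27 and in 13.7% of all. The shares at lost peaks did not differ from those of all OLIG2 peaks beyond their intervals.

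Other lost peaks with high OLIG2 enrichment had it in 1 cell type. The highest, 26.9 in NFOs, lay in a gene body near Ndufa2, followed by 16.1 at the lncRNA Gm49436 and 15.6 near AV356131. In OPCs alone the highest were 15.0 near Chd7, a chromatin remodeller, and 13.2 near Mpp7. NFO peaks near Xpo4 (14.4) and Armc12 (13.1) lay in lost peaks that H3K27me3 covered over 87.1% and 88.7% in NSCs. Fads6 had OLIG2 at 13.3 in NFOs and H3K27me3 over 11.7% of the peak in OPCs. The lost peaks named here with OLIG2 in NFOs alone were weak in NSCs. Their H3K4me3 fold enrichments ran from 3.16 (Armc12) to 3.48 (Fads6), all below the study's filter of 3.5. Those with OLIG2 in OPCs alone had 5.24 near Chd7 and 5.26 near Mpp7.

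A lost peak lay within 2 kb of a TSS of 504 genes, and 336 of them had no OPC or NFO H3K4me3 within 2 kb of any of their starts. These 336 lost genes were 265 protein-coding genes and 71 lncRNAs, and made up 2.27% of the 14815 genes with a wide NSC peak at a TSS. Within 2 kb of their starts H3K27me3 was more frequent than at all genes with a wide NSC peak. OPCs had it at 155 lost genes (46.1%, 40.7 to 51.6, against 17.7% of the 14815) and NFOs at 117 (34.8%, 29.7 to 40.2, against 10.8%). It was gained in OPCs at 81 (24.1%, 19.6 to 29.0, against 9.83%), in NFOs at 54 (16.1%, 12.3 to 20.4, against 5.6%) and in both at 49 (14.6%, 11.0 to 18.8, against 4.41%), and 156 had none in any cell type (46.4%, 41.0 to 51.9, against 72.6%). OLIG2 was less frequent, at 15 lost genes in OPCs (4.46%, 2.52 to 7.26, against 9.19%) and 23 in NFOs (6.85%, 4.39 to 10.1, against 13.4%). Genes were not matched for NSC peak strength, with a median fold enrichment of 4.27 at lost peaks and 8.28 at all wide NSC peaks. Weak kept peaks gained H3K27me3 more often than strong ones, as given above. The part of strength in these gene shares was not tested.

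Few genes of the lists were lost, as among all genes with a wide NSC peak (2.27%). None of 26 NSC and radial glia genes with a wide NSC peak was lost, although 9 of the 27 genes on that list, Nes and Vim among them, had no H3K4me3 in the NFO list. Nor was any of 25 EGF and FGF response genes, 30 cell cycle genes, 13 genes of the oligodendrocyte lineage, 1 germline gene or 2 microglial or endothelial genes. Of 9 genes of fetal growth none was lost, although Lin28b, a blocker of let-7 maturation, had a lost peak 15.0 kb from one kept at another of its starts. Extracellular matrix genes had 3 lost of 22, Col1a1, Col4a5 and Itga2, and 2 of 24 homeobox genes were lost, Nkx6-2 and Vax2. The lists further had Wnt3 of 37 signalling genes, Slc17a7, the vesicular glutamate transporter of cortical neurons, of 18 neuronal genes, and Aldoc of 9 astrocyte genes. These counts are too small to set against that share, and the lists were chosen with earlier results of these data known.

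In OPCs H3K27me3 lay within 2 kb of a start of all these lost list genes except Col4a5 and Aldoc. Of all 336 lost genes 46.1% had it in OPCs, and the list genes are too few to compare. Wnt3, a Wnt ligand, had a lost peak with a fold enrichment of 4.01, covered over 0% by H3K27me3 in NSCs, 19.8% in OPCs and 37.1% in NFOs. Col1a1, the fibrillar collagen, had a fold enrichment of 3.65, with H3K27me3 gained in OPCs and NFOs within 2 kb of a start and 0% of the peak itself covered in any list. Itga2, at 5.25, was covered over 14.8% in OPCs alone. Vax2, a homeobox gene of the ventral eye, was covered over 100% in all 3 cell types. Nkx6-2, a homeobox gene also known from oligodendrocytes, was covered over 30.2%, 48.0% and 35.5% in the order NSC, OPC and NFO, and its nearest OPC H3K4me3 peak was 101287 bp away. Slc17a7 was covered over 32.6%, 71.7% and 16.2%. Col4a5 and Aldoc had no H3K27me3 in any list.

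Further examples of lost genes were picked after their values were seen, the first set for having no H3K27me3 within 2 kb of a start in any list, and they stand for no gene group. Sparc and Sparcl1, matricellular proteins of astrocytes, had fold enrichments in NSCs of 6.23 and 4.42, and Mlc1, a membrane protein of astrocyte endfeet, had 7.36. Slc25a18, a mitochondrial glutamate carrier, had 5.52, Cbs, an enzyme of cysteine synthesis, 4.62, Btbd17 6.84 and Ntsr2, a neurotensin receptor, 3.78. OLIG2 lay within 2 kb of a start of Cbs in NFOs, and it was bound at the lost peak of Mlc1 in OPCs with a fold enrichment of 9.25 and at that of Btbd17 in NFOs with 6.02. The OPC H3K4me3 peaks nearest to Sparc, Sparcl1 and Mlc1 were 39532, 63361 and 81208 bp away, and 747 bp away at Btbd17. Osmr, the oncostatin M receptor, and Erbb2, a neuregulin receptor, were chosen in the same way and were lost with H3K27me3 gained at the gene. At Osmr H3K27me3 covered 58.3% of the peak in OPCs and 87.4% in NFOs. At Erbb2, with a fold enrichment of 7.66, it lay within 2 kb of a start in OPCs and covered 0% of the peak.

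The other 168 genes had a lost peak at one place and OPC or NFO H3K4me3 at a TSS at another, and at 157 of them an NSC H3K4me3 peak overlapped that second place. In 68 of them, 66 of which were protein-coding, the OPC or NFO peak at a TSS was at least 5 kb from the lost one, and at 65 of these an NSC peak overlapped it. The second peak was in the OPC list at 67 of the 68 and in the NFO list at 50, and H3K27me3 was gained at the lost peak in OPCs at 3. Of all lost peaks 11.4% gained it in OPCs, and of those within 1 kb of a TSS 17.0%. These shares count peaks and not genes, and 3 genes are too few to compare. Dmd, the dystrophin gene with many promoters along its length, lost a 3432 bp peak with a fold enrichment of 6.34 and kept one at another start 969.7 kb away. Ank2, an ankyrin, lost a peak with a fold enrichment of 7.00 and kept one 161.9 kb away. Abl1, a tyrosine kinase with alternative first exons, lost a 4445 bp peak at 7.70 and kept one 68.1 kb away in OPCs. Dlg3, a synaptic scaffold, lost a peak at 8.28 and kept one 7.11 kb away in OPCs.

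Some lost peaks lay close together, and the densest loci were rich in repeats. On chromosome 8 (123541501 to 123625191) 6 lost peaks had repeats over a median of 76.5% of their length, fold enrichments from 3.48 to 4.12, and H3K27me3 in NSCs at all 6. On chromosome Y (90737765 to 90778810) 5 lost peaks had repeats over a median of 64.7%. Of the 9 wide NSC peaks on that chromosome 5 were lost, and the paper's methods give mice of both sexes in about equal number, with no sex stated for the bought NSCs. The protocadherin gamma cluster on chromosome 18 (37720601 to 37818839), whose variable exons each have a promoter of their own, held 4 lost peaks, near Pcdhgb4, Pcdhgb6, Pcdhga10, Pcdhga11 and Pcdhgc5. Their repeats had a median of 9.02%, their fold enrichments ran from 3.16 to 8.37, and no H3K27me3 was gained or listed in NSCs. A locus on chromosome X (169986172 to 170019201) and contig GL456383 also held 4 each. The chromosome X locus had repeats over a median of 52.2%. It held the peak at Gm15247 and Gm15726 with a fold enrichment of 11.4.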

How the data were processed

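Per the labels and the paper's methods, the authors used Bowtie2 to map ChIP-Seq reads to mm10 (GRCm38), dropped reads without a unique position, called H3K4me3 and H3K27me3 peaks with MACS2 and OLIG2 peaks with SPP, and called each library separately. The deposited lists give the fold enrichment, a ratio over the control, and the −log10 of the FDR (for histone marks also −log10 of p), as the authors' callers wrote them. The lists hold peaks below the filter of the methods, and every listed peak was used here, with that filter (FDR below 0.05, fold enrichment above 3.5 for histone marks and 5 for OLIG2) as an alternative. The lists do not give depth.

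Peaks overlapped when they shared 1 bp. Starts came from all transcripts of 35325 GENCODE M21 genes (21951 protein-coding, 13374 lncRNA), and a gene's marks were read within 2 kb of its starts. Repeats and CpG came from the soft-masked GRCm38.p6 genome, and promoter sequences from RefSeq. Shares carry exact Clopper-Pearson 95% intervals. With 1 library per condition no test between cell types was possible. Overlap counting was checked on simulated intervals, and 2000 of 2000 were recovered. The members, gene lists and comparisons were chosen with earlier results of these data known. Named were the genes of the 10 strongest and 10 widest lost peaks within 2 kb of a TSS, the 10 with most gained H3K27me3, the 10 with the highest OLIG2 enrichment, lost genes of the 12 lists, the 3 densest loci and peaks near the thresholds. Genes named outside this rule are given as such. The 3 input libraries and the 2 RIP-Seq libraries were not used, since the RIP-Seq labels and the paper name different cell types, and OLIG2 binding in NSCs was not analysed here. Scripts ran in Python 3.11.15. Tables were handled with pandas 2.3.3 and NumPy 2.4.6, sequences with pysam 0.24.0, intervals with SciPy 1.17.1, and plots with Matplotlib 3.10.9.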

Additional observations from a re-analysis of the deposited data

How the results depend on the processing

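Of 83 recomputed values 54 stayed within the main interval (shares) or within 1.5 times the main count. The OLIG2 shares stayed within theirs under every alternative run, from 3.21% to 4.12% in OPCs and from 4.53% to 6.80% in NFOs. A minimum width of 500 bp gave 3025 lost peaks, with 29.9% within 1 kb of a TSS, H3K27me3 at 29.9% in NSCs and 11.1% in NFOs, and gains of 8.26% in OPCs and 4.23% in NFOs. A width of 2000 bp gave 103 peaks, with 69.9% at a TSS, H3K27me3 listed for NSCs at 18.4%, for OPCs at 28.2% and for NFOs at 25.2%, and gains of 14.6% and 11.7%. A fold enrichment above 5 gave 243 peaks and 137 lost genes, with 65.0% at a TSS, 14.8% with H3K27me3 in NSCs and a gain of 10.7% in NFOs. The study's filter on all lists gave 14.8% with H3K27me3 in NSCs, and on the NSC list alone 50.3% at a TSS. An H3K27me3 overlap of 200 bp gave 20.1% in OPCs. Cover of at least 50% gave 17.2%, 11.8% and 8.90% in NSCs, OPCs and NFOs, and gains, here from under 50% in NSCs, of 4.21% and 3.37%. With 1 TSS per gene 35.6% were at a TSS. Without contigs and repeat-rich peaks, an alternative chosen after seeing the data, 53.9% were at a TSS and 20.9% had H3K27me3 in NSCs. The number of peaks fell or rose with the limits by construction, and the cause of the other shifts was not tested. No paired analysis was possible because each condition has 1 library.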
